A study of Mus musculus with 50 samples.

Results

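Bulk RNA sequencing libraries of the mouse sarcoma line 402230 are described here, 2 of the 50 libraries of the series. The first carried the label of the primary p53/MCA sarcoma from which the line came, and the second carried the label of the cell line. They were chosen by their labels alone and set beside the 8 unirradiated transplant tumors that grew from the line. Each is 1 library without a replicate, so no difference between them and the tumors was tested, and their values are placed inside, above or below the range of the tumors.

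p53/MCA sarcomas were raised in Trp53 fl/fl mice, in the gastrocnemius, by injection of an adenovirus that expresses Cre recombinase, which deletes Trp53, and of 300 μg of the carcinogen 3-methylcholanthrene (MCA). The mice were 6 to 10 weeks old and on a 129/SvJae background. For the transplants, 50000 cells of 402230 were injected into that muscle in syngeneic mice. The 8 unirradiated transplants received 200 μg of an isotype control antibody (4 tumors) or of anti-PD-1 (4 tumors) with 0 Gy, as did 16 unirradiated primary tumors (8 and 8), and tumors were harvested 3 days after treatment. All transplants came from 1 line. The labels give isotype control and 0 Gy for both 402230 libraries, the one labelled cell line included, and name tumor as the source of each.

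A solid tumor is a mixture. Alongside the sarcoma cells it holds macrophages, T cells and other leukocytes, blood vessels and, in this muscle, remnants of muscle fibers, all of which contribute RNA to a bulk library. Cells grown in a dish have none of these neighbours. Ptprc encodes CD45, which is carried by leukocytes. Csf1r encodes the receptor through which macrophages receive CSF1, and Cdh5 encodes VE-cadherin, which joins endothelial cells. The level of these genes therefore reflects RNA of such cells in a library.

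The markers went against the labels. In the library labelled primary tumor, Ptprc had 5 counts, Csf1r 22 counts and Cdh5 10 counts, of 48457411 counts in all. On the CPM scale, which gives counts relative to library size, with library totals adjusted by TMM factors, these were 0.109 CPM for Ptprc (exact 95% Poisson interval 0.0355 to 0.255), 0.481 CPM for Csf1r (0.301 to 0.728) and 0.219 CPM for Cdh5 (0.105 to 0.402). The intervals cover counting error only. In the library labelled cell line, with 41226531 counts, Ptprc had 3779 counts (77.9 CPM), Csf1r 10779 counts (222 CPM) and Cdh5 5165 counts (106.4 CPM).

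Ptprc in the 8 transplants was 104.3, 150, 226 and 94.5 CPM with isotype control and 225, 151, 293 and 105.4 CPM with anti-PD-1. Csf1r was 253, 317, 455 and 240 CPM with isotype control and 342, 370, 525 and 175 CPM with anti-PD-1. Cdh5 was 72.6, 86.4, 121.6 and 60.1 CPM with isotype control and 76.9, 84.8, 108.5 and 102.9 CPM with anti-PD-1. The library labelled cell line thus held Csf1r and Cdh5 inside the range of the transplants and Ptprc just below the lowest of them. The library labelled primary tumor lay 865-fold below the lowest transplant for Ptprc, 365-fold for Csf1r and 275-fold for Cdh5. The names "library labelled primary tumor" and "library labelled cell line" are kept below as labels only, and no direction between a tumor and its line is drawn from them.

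**Figure D1:**
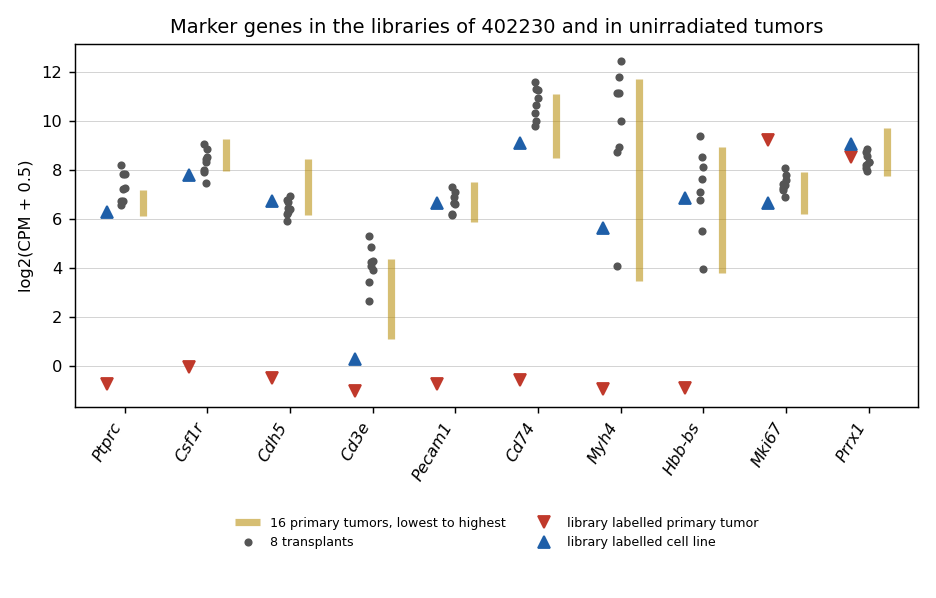
Level of 10 marker genes as log2(CPM + 0.5) in the library labelled primary tumor (red triangle pointing down), the library labelled cell line (blue triangle pointing up), each of the 8 unirradiated transplants (grey points) and the range of the 16 unirradiated primary tumors (yellow bars). The red triangles of Ptprc, Csf1r and Cdh5 stand at 0.109 to 0.481 CPM, far under all tumors, while the blue ones stand among or just below them, and Mki67 shows the opposite order.

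Totals of the 48 tumor libraries ran from 31810461 to 54008259 counts, so depth did not set the 402230 libraries apart. Other features of the libraries did. The TMM factor of the library labelled cell line was 1.18, above the 0.840 to 1.11 of the 48 tumors, and that of the library labelled primary tumor was 0.944. Both carry a single index in their labels, whereas the other 48 carry dual indexes. Genes annotated as miRNA, among them the short features Gm23935 and Gm24270, took 0.0162% and 0.0153% of the counts of the libraries labelled primary tumor and cell line, against 0.162 to 0.650% in the 48 tumors. Among 2121 genes at the low end of GC content, cut into 5 equal groups, the median log2 difference from the transplant median was 0.53 and 0.24 in these libraries, and in the group of highest GC content it was −0.35 and −0.46, while single transplants stayed between −0.08 and 0.09 in both groups. Library preparation and the 402230 samples cannot be told apart in these data. A correction for GC content was added after the data were seen.

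The library labelled primary tumor lacked the genes of the other cells of a tumor. Genes were compared with the range of the transplants where at least 1 of the 10 libraries reached 1 CPM (15751 genes), after 0.5 CPM was added to all values. In this library 1181 genes (7.5%) lay 4-fold or more below the lowest transplant and 63 genes (0.4%) lay 4-fold or more above the highest, a share that was 0.260% (41 genes) with the correction for GC content. The library labelled cell line had 57 genes (0.362%) as far below and 0.908% of genes as far above. Its share below was 1.02% without isotype transplant 1 and 0.660% without isotype transplant 4. Single unirradiated primary tumors set beside the same transplants had 0.356 to 0.933% of genes above and 0.197 to 0.768% below, and single transplants set beside the other 7 had 0 to 0.0635% above and 0 to 0.844% below. The highest of these shares below, 0.844%, was that of isotype transplant 1, in which Myh4 was lowest. Without any fold, 32.8% of the 15751 genes were above and 38.3% below the range in the library labelled primary tumor, and 21.7% and 27.9% in the library labelled cell line. These shares are the background for the gene lists below. Counts of genes inside or outside a range are given with TMM scaling, and genes near the edge of a range can change side with another scaling.

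**Figure D2:**
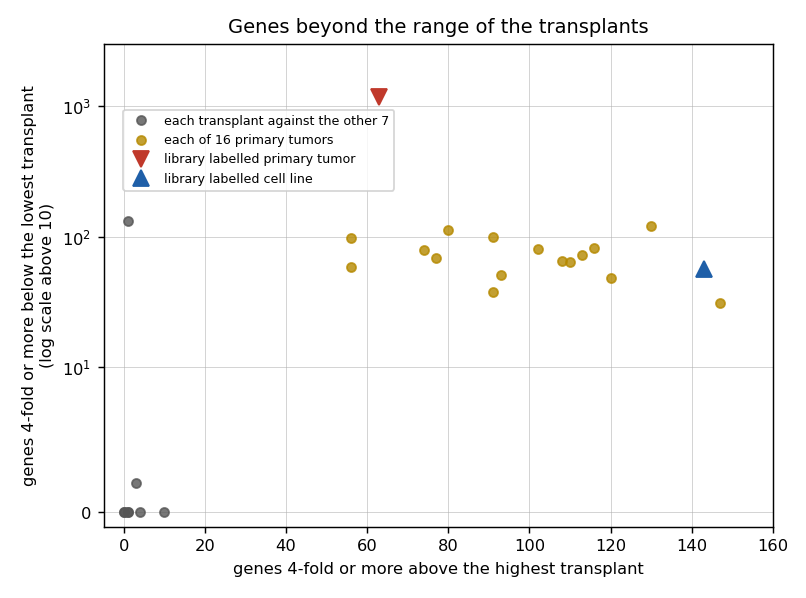
Number of genes 4-fold or more above the highest transplant (x axis) and 4-fold or more below the lowest transplant (y axis, log scale above 10), for the 2 libraries of 402230, each of 16 primary tumors and each transplant against the other 7. The library labelled primary tumor stands at 63 and 1181 genes, and the library labelled cell line at 57 genes below and 0.908% of genes above, beside the primary tumors in this plot, though its share below was 1.02% without isotype transplant 1.

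All 6 general leukocyte genes, all 10 macrophage genes, all 10 endothelial genes and all 7 T cell genes lay below the lowest transplant in the library labelled primary tumor, and the T cell genes Cd3e, Cd3d, Cd3g, Cd8a, Cd4, Cd2 and Cd5 each had 0 counts. The summed level of the T cell list was 42.1 to 208.6 CPM in the transplants and 11.7 CPM in the library labelled cell line. The macrophage list summed to 14.99 CPM in the library labelled primary tumor, of which Cd14 (11.4 CPM) and Cd68 (2.21 CPM) made up most, against 1379 to 3459 CPM in the transplants. The endothelial list summed to 1.62 CPM against 360.1 to 653.1 CPM. Genes of red blood cells summed to 0.0874 CPM against 25.7 to 1062 CPM.

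The genes farthest below the transplants in this library were those of antigen presentation on MHC class II and of macrophage lysosomes and complement. The 10 farthest, by the rule for named genes, were H2-Ab1, Cd74, H2-Eb1, H2-Aa, Lyz2, Ctss, C1qb, C1qa, Mpeg1 and C1qc. H2-Ab1, a chain of the class II molecule that displays peptides to CD4 T cells, had 0 counts, at least 11196-fold lower than the lowest transplant (734 CPM) when set against a floor of 3 counts in this library. Cd74, the invariant chain that escorts class II molecules, had 8 counts (0.175 CPM) against 885 to 3064 CPM. Of 10606 genes with at least 5 CPM in all 8 transplants, 287 (2.71%) had 3 counts or fewer in the library labelled primary tumor and 1.35% had 0, whereas 0 of the 10606 had 3 counts or fewer in the library labelled cell line. In that library 96 of the 287 lay inside the range of the transplants, 177 below and 14 above, the 14 including the vascular genes Emcn, Cldn5, Dll4 and Gpihbp1 and the basement membrane collagen Col15a1.

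Proliferation genes went the other way. All 17 cell cycle genes were above the highest transplant in the library labelled primary tumor, with a median log2 difference of 1.41 from the transplant median, against −0.09 over all genes. For the library labelled cell line, 14 of the 17 were below the lowest transplant with TMM scaling and 3 inside, with a median of −0.57. Mki67, the Ki-67 antigen of cycling cells, was 597 CPM in the library labelled primary tumor and 98.8 CPM in the library labelled cell line. In the transplants it was 143.2, 165, 221 and 151 CPM with isotype control and 117.3, 190, 172 and 272 CPM with anti-PD-1. The library labelled cell line lay 1.19-fold below the lowest transplant for Mki67, a distance that depends on the scaling. Top2a, the topoisomerase that untangles replicated chromosomes, was 1170.1 CPM and 215 CPM in these libraries against 205 to 359 CPM in the transplants.

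Genes of the cholesterol synthesis list were also high in the library labelled primary tumor, with 14 of 15 genes above all transplants and a median log2 difference of 1.16, which was 0.86 after the correction for GC content. Of the 15, 9 were inside the range in the library labelled cell line, where the median of −0.04 became 0.19 when library totals alone were used.

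Of 12 mesenchymal genes, 7 lay below the transplants in the library labelled primary tumor, 5 of them by 4-fold or more, and 5 lay inside, with a median log2 difference of −1.18. Those inside included Pdgfra (357 CPM), Pdgfrb (58.0 CPM), Prrx1 (365 CPM) and Vim (3433 CPM), and Fn1 of the matrix list, which encodes fibronectin, also lay inside at 2666 CPM. Of the 14 genes of the collagen and matrix list, 12 were below the lowest transplant, with a median log2 difference of −2.17. Col1a1, the α1 chain of type I collagen, was 112.6 CPM against 1630 to 3833 CPM. Dcn, which encodes the proteoglycan decorin, was 44.2 CPM against 401 to 548 CPM, and Lum, which encodes lumican, had 4 counts (0.0874 CPM) against 14.2 to 110.7 CPM. Thy1, a surface glycoprotein of fibroblasts, was 1.77 CPM against 151 to 276 CPM. In bulk libraries fewer cells of a type and less RNA per cell cannot be told apart.

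In the library labelled cell line 10 of the 14 collagen and matrix genes lay inside the range of the transplants, 2 above and 2 below, with a median of −0.07 that became 0.13 with library totals alone and 0.23 with the correction for GC content. Dcn (1332 CPM), Lum (190 CPM), Col15a1 (129.4 CPM) and Fn1 (4812 CPM) were above the highest transplant, and all 4 lay inside the range of the primary tumors (299.6 to 1703, 24.03 to 785, 63.8 to 564 and 1417 to 7884 CPM). Col1a1, at 1488 CPM, was just below the lowest transplant, by 1.10-fold, a distance that depends on the scaling.

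The genes farthest above the transplants in the library labelled primary tumor were Slc6a15, Gpnmb, Eif4a-ps4, Prkg2, Perp, Esm1, Tfrc, Lgr6, Ngef and Kif20b. Gpnmb, a transmembrane glycoprotein of melanocytes and macrophages, was 547 CPM against 13.7 to 54.3 CPM. Prkg2, a cGMP-dependent protein kinase, was 245 CPM against 18.4 to 25.9 CPM. Tfrc, the transferrin receptor that brings iron into cells, was 470 CPM against 35.1 to 65.6 CPM. Kif20b no longer passed 4-fold after the correction for GC content. Eif4a-ps4 is a processed pseudogene, whose reads may be shared with its parent gene. The secreted growth factor Csf1, the ligand of Csf1r, was 609 CPM in this library, 92.3 CPM in the library labelled cell line and 105.5 to 211 CPM in the transplants. Ptgs2, which encodes cyclooxygenase 2, was 857 CPM against 69.4 to 546 CPM.

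**Figure D3:**
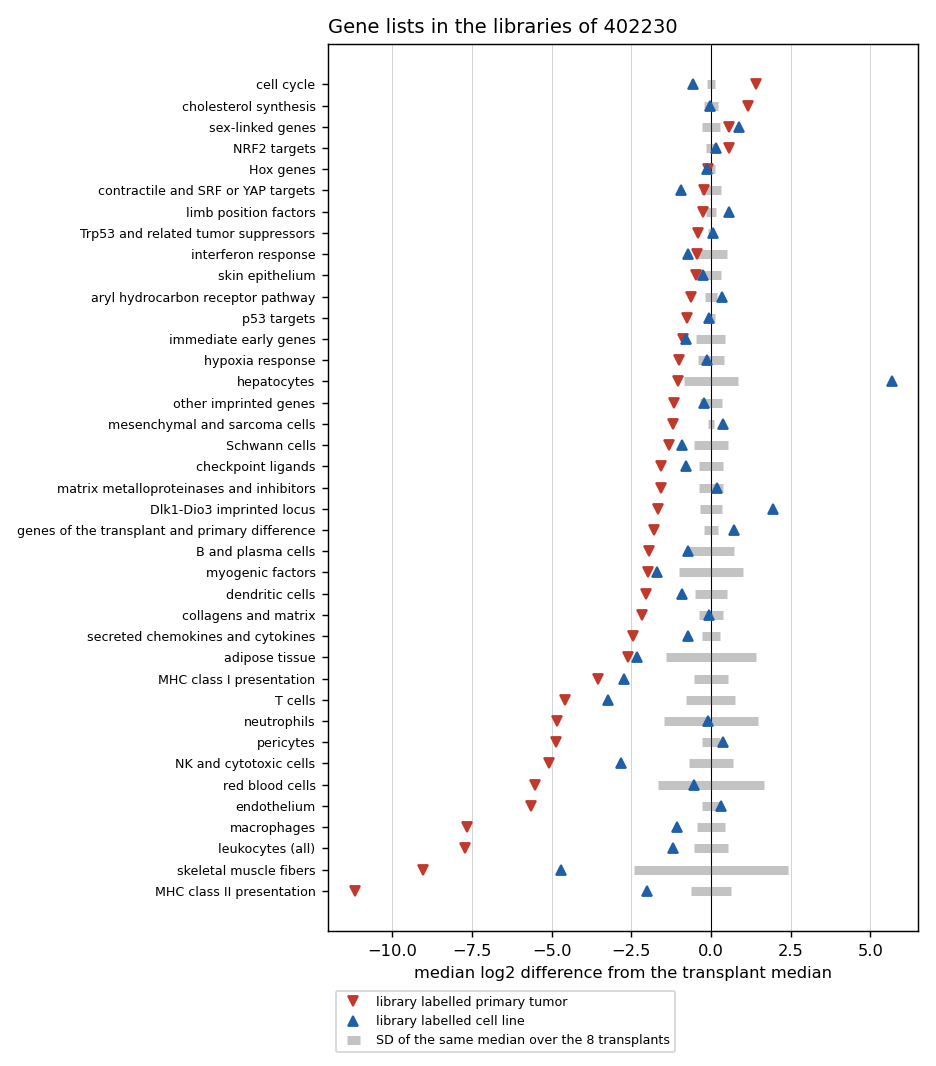
Median log2 difference from the transplant median over the genes of each list (x axis) for the library labelled primary tumor (red) and the library labelled cell line (blue), with the SD of the same median over the 8 transplants as grey bars. The red triangles reach −11.17 for MHC class II and 1.41 for the cell cycle, and the blue ones reach 5.67 for the hepatocyte genes.

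Antigen presentation genes were below the transplants in the library labelled cell line too. All 10 MHC class I presentation genes lay below the lowest transplant, with a median log2 difference of −2.73, and all 7 class II genes did, with a median of −2.01. Beside the primary tumors, the class II sum of 1615 CPM was inside their range (1106 to 6973 CPM). The class I sum of 1620 CPM was below theirs (2309 to 10497 CPM). H2-K1, a classical class I molecule, was 225 CPM in this library and 118.9 CPM in the library labelled primary tumor. In the transplants it was 1379.6, 1675, 2433 and 734 CPM with isotype control and 2035, 2105, 2582 and 1607 CPM with anti-PD-1. The gap of the library labelled cell line to the lowest transplant was 3.27-fold, and the lowest transplant, isotype 4, was also the lowest for Cxcl9 and Cd8a. Cxcl9, an interferon-γ-induced chemokine that draws T cells, was 13.4 CPM in the library labelled cell line and 0.787 CPM in the library labelled primary tumor, against 121.7 to 1421 CPM.

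T cell and cytotoxic genes lay farther below the transplants than macrophage genes did in the library labelled cell line. Endothelial genes lay mostly inside the range of the transplants. Of the 7 T cell genes 6 lay below the lowest transplant, with Cd3e at 0.742 CPM (36 counts) against 5.84 to 39.1 CPM and Cd8a at 0.886 CPM (43 counts) against 9.99 to 55.03 CPM. Cd4 was inside the range at 7.77 CPM. Cd3e and Cd8a were also below the lowest of the 16 unirradiated primary tumors (1.67 and 1.16 CPM). All 6 general leukocyte genes were below the lowest transplant, with a median log2 difference of −1.18. Of these, Cd53 was below by 1.14-fold, a distance that depends on the scaling. Of the 10 macrophage genes 6 were inside the range and 4 below it, and their sum of 1166 CPM was below that of every transplant. The median log2 differences were −3.23 for T cells, −1.05 for macrophages and 0.32 for endothelium. Of the 6 NK and cytotoxic genes 4 were below, the cytotoxic genes Nkg7, Prf1, Gzma and Gzmb. The NK cell receptor genes Ncr1 (1.63 CPM against 0.961 to 3.59 CPM) and Klrb1c (0.845 CPM against 0.222 to 1.99 CPM) were inside. Of the 10 endothelial genes 7 were inside, 2 above and 1 below. All 10 skeletal muscle genes were inside, but this range was wide, with Myh4, a fast myosin heavy chain, at 16.5 to 5597 CPM in the transplants and 48.7 CPM in this library. Only isotype transplant 1 (16.5 CPM) was below it, and without that transplant the library lay 4-fold or more below the rest.

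Genes of the liver made up most of those farthest above the transplants in the library labelled cell line. Of its 10 farthest genes, Fga, Serpina3k, Fgb, Mug1, Pzp, Ahsg, Hpx, Apob and Fgg encode plasma proteins made by hepatocytes, and the other, which ranked first, was Irs4. A list of 13 hepatocyte genes, added after this was seen, had all 13 members 4-fold or more above the highest transplant. Its members Fga, Fgb, Fgg, Serpina3k, Ahsg, Hpx and Apob are among the genes just named, so their part of this count was fixed in advance. The list summed to 1010.1 CPM in this library, 1.20 CPM in the library labelled primary tumor, 1.47 to 52.7 CPM in the transplants and 0.692 to 250.4 CPM in the primary tumors. Alb, which encodes albumin, was 347 CPM in the library labelled cell line and 0.262 CPM in the library labelled primary tumor. In the transplants it was 0.0467, 22.3, 2.41 and 6.66 CPM with isotype control and 20.95, 2.19, 9.75 and 0.0246 CPM with anti-PD-1. The highest sum of the list in any of the 48 tumors, irradiated ones included, was 662 CPM. The labels state that liver of the mice was harvested as a matched control, and its part in these values was not tested. Irs4, an adaptor of insulin and growth factor signalling, had 1051 counts (21.7 CPM) in the library labelled cell line, 6 counts in the library labelled primary tumor, at most 0.0203 CPM in a transplant and at most 0.609 CPM in a primary tumor.

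The genes farthest below the transplants in the library labelled cell line were Gm23935, Scand1, Cebpb, Rnaset2a, Ubd, Cxcl9, Cd8a, Jund, H1fx and Ccdc85b. All of these but H1fx were below the transplants by 4-fold or more in the library labelled primary tumor as well, where Ubd and Cd8a had 0 counts. Cebpb, a transcription factor of inflammation, was 10.3 CPM and 5.20 CPM in the libraries labelled cell line and primary tumor against 134.7 to 290 CPM. The 57 genes so far below had a median GC content of 54.6% and a median longest transcript of 1689 bases, against 49.7% and 3166 bases over the 15751 genes. Among the 10 named, Cebpb, Scand1, Jund, H1fx and Gm23935 had a GC content of 67.1 to 73.7%. Rnaset2a, Ubd, Cxcl9, Cd8a and Ccdc85b had 42.9 to 54.8%.

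The position of the 402230 libraries between primary tumors and transplants was then described. In an edgeR quasi-likelihood fit of the 24 unirradiated tumors, with the antibody as a covariate, 2353 of 17300 genes (13.6%) were higher and 2740 (15.8%) lower in the transplants, relative to primary tumors, at a Benjamini-Hochberg adjusted p under 0.05. The libraries of 402230 took no part in it. All transplants in the fit grew from that 1 line, so traits of the line and effects of transplantation cannot be told apart. Over the 2089 of these genes with a log2 fold change of at least 1 in either direction, a library was counted on the transplant side when its log2 level was nearer to the transplant mean than to the primary mean. The library labelled primary tumor was on the transplant side for 51.1% of the genes and the library labelled cell line for 43.8%. When each tumor was left out and placed in the same way, transplants had 69.5 to 92.5% and primary tumors 15.4 to 34.6%, so neither 402230 library fell among either group.

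The direction of the genes set the libraries apart. Of the 1056 genes lower in transplants, the library labelled primary tumor was on the transplant side for 82.5% and the library labelled cell line for 53.5%. Of the 1033 genes higher in transplants the shares were 18.97% and 33.9%. Of those 1033 genes, 650 were under 0.5 CPM in the library labelled primary tumor, and among the other 383 it was on the transplant side for 48.04% and the library labelled cell line for 58.2%. Of the 1056 lower genes, 556 were under 0.5 CPM in the library labelled primary tumor, which was on the transplant side for 96.9% of them. A gene with hardly any reads mostly lies on the side of the lower group by this rule. Among the other 500 the shares were 66.4% for the library labelled primary tumor and 52.6% for the library labelled cell line. The genes for which both libraries were on the transplant side numbered 480 of the 1056 lower and 147 of the 1033 higher ones.

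**Figure D4:**
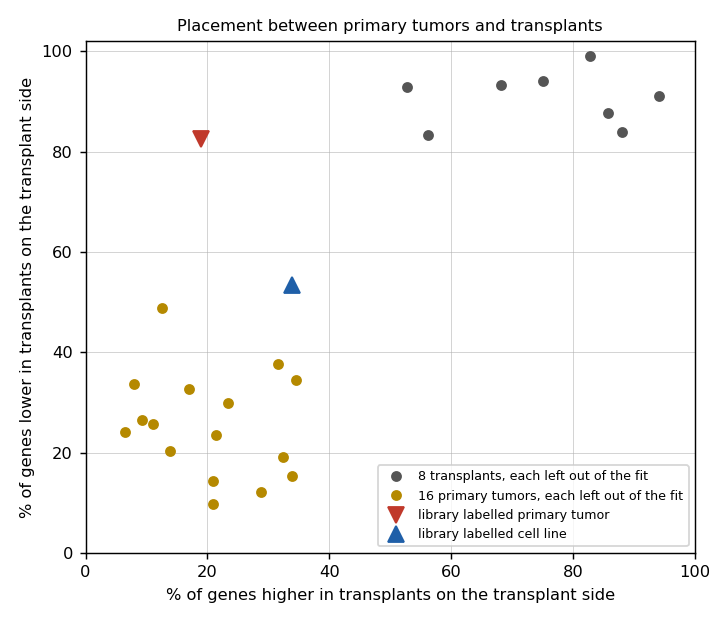
Share of the genes higher in transplants (x axis) and of the genes lower in transplants (y axis) for which a library was on the transplant side, in percent, for the 2 libraries of 402230 and for each tumor left out of the fit in turn. The library labelled primary tumor stands at 18.97% and 82.5%, and the library labelled cell line at 33.9% and 53.5%. Of the 1033 higher and 1056 lower genes, 650 and 556 were under 0.5 CPM in the library labelled primary tumor. Both lie within the primary tumors on the x axis (6.42 to 34.5%), and on the y axis both lie between the primary tumors (up to 48.8%) and the transplants (from 83.4%).

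Targets of NRF2, the transcription factor that switches on the defence against oxidants and electrophiles, were mostly higher in transplants than in primary tumors. Of 12 such genes in the fit, 9 were higher in the transplants and 0 were lower, with a median log2 fold change of 0.81. Over all genes of the fit, 13.6% were higher and 15.8% lower. In the library labelled primary tumor 6 of the 12 were above and 6 inside the range of the transplants, where 32.8% and 28.8% of all genes were. Its median log2 difference of 0.56 was 0.21 with the correction for GC content. In the library labelled cell line 4 were above, 6 inside and 2 below, against 21.7%, 50.5% and 27.9% of all genes. These counts were near that background. The median there was 0.16, no larger than its SD of 0.16 over the transplants. Nqo1, a quinone reductase, was 268 CPM and 218 CPM in the libraries labelled primary tumor and cell line. It was 163, 191, 129.4 and 152 CPM in the isotype transplants and 183, 145.6, 130.4 and 150 CPM in the anti-PD-1 transplants, and 3.82 to 22.9 CPM in the 16 primary tumors. Neither 402230 library nor any transplant overlapped the primary tumors, and the log2 fold change of transplants over primary tumors was 3.97 (SE 0.24, edgeR adjusted p = 8.57e-11).

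Gclc, the catalytic subunit of the enzyme that limits glutathione synthesis, was 237 CPM and 161 CPM in the libraries labelled primary tumor and cell line, 74.5 to 106.3 CPM in the transplants and 23.0 to 43.8 CPM in the primary tumors. Gclm, its modifier subunit, was 120.7 CPM and 86.1 CPM, 48.7 to 76.5 CPM and 33.3 to 47.6 CPM in the same order. Txnrd1, a thioredoxin reductase, was 676 CPM and 301 CPM, 264 to 482 CPM and 116.2 to 213 CPM. Slc7a11, the cystine transporter, was 198 CPM in the library labelled cell line, above the highest transplant (44.7 CPM), and 37.9 CPM in the library labelled primary tumor, inside their range. It was 4.44-fold above the highest transplant, a distance that fell under 4-fold with the correction for GC content.

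NRF2 binds the antioxidant response element, whose core was searched as TGACNNNGC on both strands of the 300 bases around the start of each gene, from RefSeq on GRCm38.p6. Of 9 list genes with a promoter in the table, 5 (55.6%) held it, as did 14.0% of all 27025 genes with a promoter. Gclm and Txnrd1 are shown as examples of the match. Of 3 Txnrd1 promoters in the table, 2 held no match. The match is in capitals, on the reverse strand in each, at position −134 (Gclm, chr3:122245307-122245606, plus strand) and −92 (Txnrd1, chr10:82858956-82859255, plus strand) relative to the start.
Gclm: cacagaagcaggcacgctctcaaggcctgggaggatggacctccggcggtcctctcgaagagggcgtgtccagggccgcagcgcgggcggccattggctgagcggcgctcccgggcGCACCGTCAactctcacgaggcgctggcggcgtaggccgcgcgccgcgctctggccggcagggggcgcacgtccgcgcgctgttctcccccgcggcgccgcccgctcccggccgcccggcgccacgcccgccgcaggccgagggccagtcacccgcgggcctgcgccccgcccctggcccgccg
Txnrd1: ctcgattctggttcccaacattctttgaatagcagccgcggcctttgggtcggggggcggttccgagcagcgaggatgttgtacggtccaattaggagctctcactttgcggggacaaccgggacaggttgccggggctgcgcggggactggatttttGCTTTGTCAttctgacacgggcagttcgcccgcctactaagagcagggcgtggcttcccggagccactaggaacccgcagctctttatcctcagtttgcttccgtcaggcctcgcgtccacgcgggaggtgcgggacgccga

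A match is a description of letters and not a bound site. The promoters of Nqo1 and Slc7a11 in the table held no match in this window, although these genes, like Gclm and Txnrd1, were above all primary tumors in both 402230 libraries.

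Other genes that differed between transplants and primary tumors placed the libraries differently. Sox2, a transcription factor of stem cells, was 21.2 CPM in the library labelled primary tumor and 30.8 CPM in the library labelled cell line, inside the transplants (17.5 to 62.9 CPM) and above the primary tumors (0 to 6.51 CPM). Stra6, a membrane receptor for retinol transport, was 288 CPM in the library labelled cell line against 286 to 562 CPM in transplants and 0.150 to 96.3 CPM in primary tumors, but 33.7 CPM in the library labelled primary tumor. Their log2 fold changes of transplants over primary tumors were 5.18 (SE 0.78, edgeR adjusted p = 2.99e-05) for Sox2 and 4.17 (SE 0.75, edgeR adjusted p = 2.07e-04) for Stra6.

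Other genes were high in only 1 of the 402230 libraries. Dlx1, a homeobox factor, was 54.4 CPM in the library labelled primary tumor and 9.61 to 16.1 CPM in transplants. It was at most 7.85 CPM in primary tumors and had 6 counts (0.124 CPM) in the library labelled cell line. Prl2c2, a proliferin of the prolactin family whose near-identical copies can share reads, was 219 CPM, 17.01 to 109.8 CPM, at most 38.8 CPM and 4.43 CPM in the same order. Bhlhe22 and Pld5 showed the reverse pattern: 14.2 CPM and 9.07 CPM in the library labelled cell line, 3 counts and 1 count in the library labelled primary tumor, at most 0.562 and 0.367 CPM in transplants, and 0.945 to 36.6 and 0.401 to 24.5 CPM in primary tumors.

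The genes with the largest differences between transplants and primary tumors were read too. Among the 10 with the largest rise in the transplants were Sln, Ngp, Prg2, Slc4a1, Ltf and Camp. For each of these, both 402230 libraries were on the side of the primary tumors. Kcnip1, a regulator of potassium channels, had 0 counts in the library labelled primary tumor and 15 counts (0.309 CPM) in the library labelled cell line, against at most 0.0469 CPM in transplants and 2.58 to 24.8 CPM in primary tumors (log2 fold change −8.60, SE 0.69, edgeR adjusted p = 4.81e-09). Nptx2, a secreted neuronal pentraxin, was 0.0437 CPM and 1.46 CPM in these libraries, at most 0.258 CPM in transplants and 6.27 to 51.7 CPM in primary tumors. Dmrta2, a transcription factor, was 3.63 CPM and 2.27 CPM, between the primary tumors (at most 0.315 CPM) and the transplants (10.6 to 18.3 CPM). For the last of these the log2 fold change was 6.56 (SE 0.32, edgeR adjusted p = 8.23e-13).

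The imprinted Dlk1-Dio3 locus on chromosome 12 expresses the noncoding RNAs Meg3 and Rian from the maternal copy and Dlk1 from the paternal copy. Meg3 was 78.4 CPM in the library labelled cell line and 1.75 CPM (80 counts) in the library labelled primary tumor. It was 5.51, 7.15, 10.1 and 21.7 CPM in the isotype transplants, 11.7, 8.72, 6.72 and 10.7 CPM in the anti-PD-1 transplants and 34.2 to 396 CPM in the primary tumors. The order was thus the library labelled primary tumor, then all transplants, then the library labelled cell line, which lay inside the primary tumors. Rian was 76.0 CPM in the library labelled cell line, between the transplants (3.85 to 15.1 CPM) and the primary tumors (81.9 to 418 CPM), and 2.95 CPM in the library labelled primary tumor. It was 5.05-fold above the highest transplant, and under 4-fold with the correction for GC content. Dlk1 was inside the range of the transplants (1.81 to 46.7 CPM) in both libraries, at 46.3 CPM in the library labelled primary tumor and 20.4 CPM in the library labelled cell line. Only anti-PD-1 transplant 2 (46.7 CPM) was above them, and the other transplants were at 1.81 to 15.2 CPM.

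Hox genes record the position of a cell along the body and limb. The Hoxa cluster summed to 249.9 CPM in the library labelled primary tumor, above the transplants (118.3 to 166 CPM), and to 142.4 CPM in the library labelled cell line, inside them. Hoxc and Hoxd sums lay inside the range of the transplants in both libraries. The Hoxb cluster was low but present in all tumors, at 7.56 to 11.7 CPM summed in the transplants and 5.93 to 29.8 CPM in the primary tumors, and was 11.7 CPM in the library labelled cell line. The 9 Hoxb genes summed to 4 counts (0.0874 CPM) in the library labelled primary tumor, 86.5-fold below the lowest transplant.

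**Figure D5:**
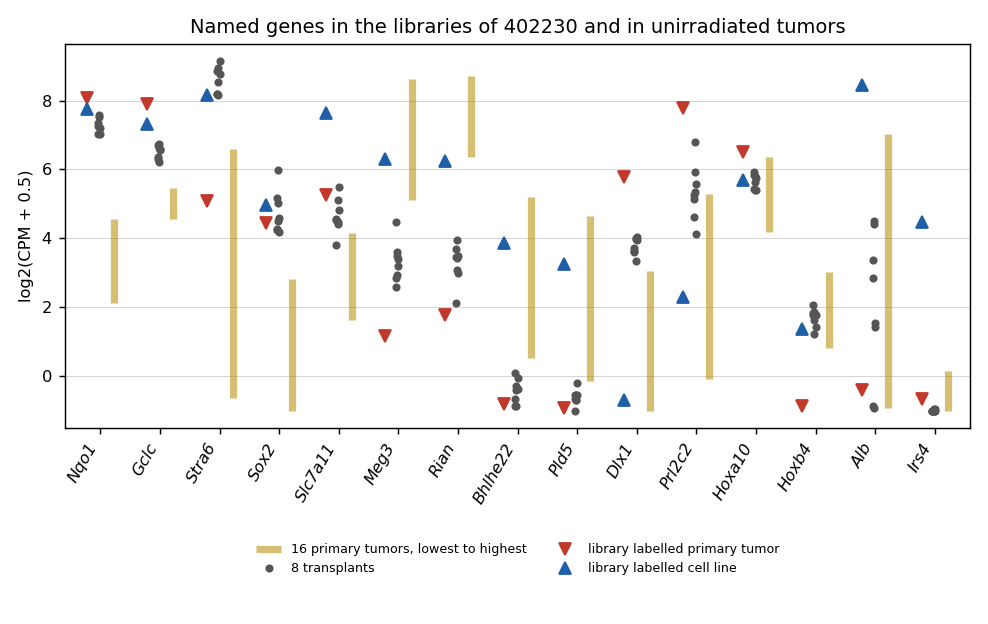
Level of 15 named genes as log2(CPM + 0.5), with symbols as in the plot of marker genes. Nqo1 and Gclc stand above the primary tumors in both libraries of 402230, Meg3 and Rian stand above the transplants in the library labelled cell line and below them in the library labelled primary tumor, and Alb and Irs4 stand above all 24 unirradiated tumors in the library labelled cell line.

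Further lists were counted in the same way. In the library labelled primary tumor 16 of 19 secreted chemokines and cytokines, 5 of 12 interferon response genes and 6 of 12 hypoxia genes were below the transplants, where 38.3% of all genes were, so the interferon and hypoxia counts were near that background. In the library labelled cell line 9, 5 and 0 were below, against 27.9% of all genes. Genes of contractile cells and of SRF or YAP activity were below in 6 of 11 in the library labelled cell line and in 3 of 11, with 3 above, in the library labelled primary tumor. Mmp9, a secreted gelatinase, was 338 CPM in the library labelled cell line and 1.42 CPM in the library labelled primary tumor, against 32.8 to 283 CPM in the transplants. Cspg4, a proteoglycan of pericytes and some tumor cells, was the only pericyte gene of 5 above the transplants in the library labelled primary tumor, at 83.9 CPM against 5.88 to 33.3 CPM.

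The deleted gene and the sex-linked genes were read in the same way. Trp53 was 11.3 CPM in the library labelled primary tumor and 18.9 CPM in the library labelled cell line, both below the lowest of the transplants (25.0 to 46.6 CPM) and of the primary tumors (19.1 CPM). For the library labelled cell line, the place beside the primary tumors depends on the scaling. Counts per gene do not separate the deleted exons from the rest. Ddx3y, a gene of the Y chromosome, was 88.1 CPM and 118.8 CPM in these libraries and 32.8 to 66.8 CPM in the transplants. Xist, which is expressed from the inactive X chromosome of female cells, had 2 and 10 counts. It was 87.5 CPM in isotype transplant 2 and 76.4 CPM in anti-PD-1 transplant 2, and at most 0.426 CPM in the other 6.

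Beside the 16 unirradiated primary tumors, over 16225 genes, the library labelled primary tumor had 30 genes (0.185%) 4-fold or more above the highest tumor and 869 (5.36%) below the lowest. Its 10 farthest below were the same macrophage and class II genes as beside the transplants, and its 10 farthest above were Prkg2, Perp, Nqo1, Eif4a-ps4, Itga3, Nrn1, Dlx1, Zfp51, Prl2c2 and Ptgs2. The library labelled cell line, a comparison added after its markers were seen, had 50 genes (0.308%) above and 11 (0.0678%) below. Single primary tumors set beside the other 15 had 1 to 20 genes above and 0 to 8 below. The farthest above in the library labelled cell line was Aox3, an aldehyde oxidase, at 95.8 CPM against at most 1.72 CPM in primary tumors and 7.61 to 28.5 CPM in transplants.

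Across the 15751 genes, Spearman's rho of the library labelled primary tumor was 0.779 to 0.873 with the transplants and 0.823 to 0.879 with the primary tumors. The library labelled cell line had 0.891 to 0.952 with the transplants and 0.922 to 0.936 with the primary tumors. Pairs of transplants had 0.935 to 0.987, and the 402230 libraries had 0.874 with each other. These are correlations across genes, which are not independent replicates.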

How the data were processed

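Per the labels and methods, the authors captured RNA with oligo-dT beads, made stranded KAPA libraries, ran Trimmomatic 0.36 and then STAR against mm10, and deposited raw HTSeq counts per gene of GENCODE release M17, not normalized. The strand setting was not stated, so overlapping genes are uncertain. Identifiers (37469, of which 37408 had a symbol) were matched to GENCODE release M21. CPM used TMM factors over all 50 libraries (edgeR 4.0.16 in R 4.3.3). The 24 unirradiated tumors were fitted with edgeR's quasi-likelihood test after filterByExpr, with p-values adjusted by the Benjamini-Hochberg method. The fit and the range rule were tested on simulated data. Nothing says which tumors shared a mouse litter or culture, so p-values measure the spread between these samples. The 402230 libraries have no replicate and no test. Named genes were Ptprc, Csf1r and Cdh5, genes of fixed lists, the 10 farthest above and below each range among genes with at least 20 CPM in the library or in the median of the tumors, and the 10 with the largest change in each direction in the fit. Members, lists and tests were chosen with earlier results of these data known. Genes named outside these rules, and the hepatocyte list, were chosen after values were seen. Depth was 31810461 to 54008259 counts, and the floor of 3 counts was 0.0656 CPM and 0.0618 CPM in the libraries labelled primary tumor and cell line. Alternatives were other scalings, added CPM, filters, tools, reference tumors and a GC correction in 20 bins.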

Additional observations from a re-analysis of the deposited data

Results flagged for a closer look

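Within each group of 4 transplants, the highest or lowest library was compared with the other 3 by the ratio of its gap to the range (limit 0.829), over 190 values, of which 11 passed. Chance flags about 1 in 20 groups, and no explanation was weighed. The mean log2(CPM + 0.5) of the Dlk1-Dio3 imprinted locus list was 1.74 in anti-PD-1 transplant 3 against 2.01 to 2.06 in the other 3 transplants of its group. The mean log2(CPM + 0.5) of the contractile and SRF or YAP targets list was 6.23 in anti-PD-1 transplant 1 against 5.55 to 5.64 in the other 3 transplants of its group. The mean log2(CPM + 0.5) of the matrix metalloproteinases and inhibitors list was 6.01 in anti-PD-1 transplant 1 against 6.88 to 7.01 in the other 3 transplants of its group. Dcn at log2(CPM + 0.5) was 9.10 in anti-PD-1 transplant 2 against 8.83 to 8.87 in the other 3 transplants of its group. Thy1 at log2(CPM + 0.5) was 8.11 in isotype transplant 1 against 7.24 to 7.35 in the other 3 transplants of its group. Txnrd1 at log2(CPM + 0.5) was 8.91 in anti-PD-1 transplant 4 against 8.50 to 8.55 in the other 3 transplants of its group. Stmn2 at log2(CPM + 0.5) was 1.15 in anti-PD-1 transplant 2 against 1.56 to 1.58 in the other 3 transplants of its group. Pld5 at log2(CPM + 0.5) was −0.68 in anti-PD-1 transplant 4 against −0.55 to −0.54 in the other 3 transplants of its group. Esm1 at log2(CPM + 0.5) was 4.67 in anti-PD-1 transplant 4 against 3.19 to 3.30 in the other 3 transplants of its group. Aox3 at log2(CPM + 0.5) was 4.86 in isotype transplant 1 against 3.29 to 3.54 in the other 3 transplants of its group. Isotype transplant 1 had 39637900 counts in round numbers against 43840600 to 44671000 in the other 3 isotype transplants.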

How the results depend on the processing

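Under other settings, 17 values of the main counts and shares moved beyond 1.5 times or their spread, and 0 changed direction. With 0.1 CPM added, 1.46% of genes were 4-fold or more above and 0.781% below the transplants in the library labelled cell line, with 0.481% above and 0.148% below the primary tumors. The library labelled primary tumor then had 0.641% above and 11.4% below beside the transplants and 0.333% and 8.80% beside the primary tumors. With isotype primary tumors alone as the reference, 0.364% of genes were above in the library labelled primary tumor, and 0.764% were above and 0.111% below in the library labelled cell line. The correction for GC content left 0.260% of genes above the transplants in the library labelled primary tumor. The fit of isotype groups alone called 691 genes higher and 1040.0 lower and put the library labelled cell line on the transplant side for 50.7%. The isotype settings hold fewer tumors, and the other causes were not tested. Leaving out each transplant in turn gave 0.362 to 1.02% of genes below in the library labelled cell line (1.02% without isotype transplant 1 and 0.660% without isotype transplant 4) and 0.921 to 0.959% above. It gave 7.50 to 8.77% below and 0.406 to 0.457% above in the library labelled primary tumor, 1801 to 2414 higher and 2336 to 2855 lower genes in the fit, and 40.7 to 47.3% and 47.9 to 55.7% on the transplant side in the libraries labelled cell line and primary tumor. Of 2788 values of single genes, 7 fell under 4-fold, 20 rose past it and 0 changed direction. With the correction for GC content, Slc7a11 (1.87), Rian (1.94) and Stmn2 (1.88) in the library labelled cell line and Kif20b (1.85) in the library labelled primary tumor fell under a log2 distance of 2. List medians changed sign with the scaling or the GC correction for neutrophils, skin epithelium, collagens, tumor suppressors, p53 targets, cholesterol synthesis, hypoxia and Hox genes in the library labelled cell line, and for limb position factors and sex-linked genes in the library labelled primary tumor. Over all genes the median log2 difference of the library labelled cell line was −0.09, and 0.11 with library totals alone. No paired analysis was possible because the replicate numbers were given in accession order and the 402230 libraries are single.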
